A study of Mus musculus with 38 samples.

Results

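The genes described here are 10 glycosyltransferases of mouse intestinal epithelium: the sialyltransferases St3gal1 to St3gal6 and St6gal1, the fucosyltransferases Fut2 and Fut8, and the galactosyltransferase C1galt1. They were chosen by name from a glycosylation family and make up 10 of the 46078 genes in the deposited counts. The family was selected on levels already seen in these libraries, above all its differences from untreated mice, that of St3gal5 in WT on day 3 among them, and comparisons with untreated mice are therefore given with no test. All 10 were found by their symbols, and 9 passed the filter on low counts in each comparison below. St3gal5 passed it in every comparison except that of the genotypes on day 0, and against day 0 only through its DSS libraries. RNA sequencing covered 38 libraries of isolated intestinal epithelial cells of C57BL/6 mice, each titled with its own animal number. KO mice carried floxed Hk2 and a Cre recombinase driven by the Villin promoter, which deletes Hk2 in intestinal epithelial cells, and WT mice were littermates with both Hk2 alleles floxed. Libraries came from untreated mice (day 0; 4 WT, 5 KO) and from mice given 1.5% (w/v) dextran sodium sulfate (DSS), a detergent-like polymer that causes colitis, for 3 days (7 WT, 8 KO) or for 7 days (7 WT, 7 KO). DSS mice were males 10 to 12 weeks old, and basal mice were 9 to 11 or 86 to 92 weeks old, with no statement of which of these the day 0 mice were. Titles give day, genotype and animal number (d3_KO_345, for example). P-values below measure the spread between these libraries, which may be partly technical.

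Most proteins and lipids at the surface of gut epithelial cells end in chains of sugars, and sialic acid and fucose are the usual caps of those chains. Sialyltransferases move sialic acid from its activated donor to galactose in the Golgi, and the enzyme decides whether the bond goes to the third carbon of galactose (the St3gal family) or to the sixth (St6gal1). Fut2 caps galactose with fucose and so makes the H antigen that gut bacteria bind and use, Fut8 adds the core fucose at the base of N-glycans, and C1galt1 builds the core on which most mucin O-glycans are extended.

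Total counts were 10.5 to 60.6 M per library, with a median of 43.2 M, so that 3 counts, taken as the smallest level a library can show, correspond to 0.0495 to 0.286 CPM (counts per M counts of a library). Levels are CPM scaled by TMM (trimmed mean of M values). The 9 day 0 libraries stood apart: they carry another series prefix, and mitochondrial ribosomal RNA took 6.25 to 45.6% of their counts against 0.352 to 3.95% on days 3 and 7. The 45.6% was that of d0_KO_32, and the next highest was 13.8% in d0_WT_31. On days 3 and 7 the libraries d3_WT_381 and d7_WT_386 had the fewest genes detected, 19084 and 19831. Their totals were the lowest of those days, at 26.7 and 25.2 M counts. Against day 0, day and library series cannot be told apart. Of the day 0 libraries, d0_WT_31 and d0_KO_32 differed from the others in Xist, which female cells express, and Ddx3y, which lies on the Y chromosome. Hk2, the targeted gene, had 347 ± 90.6 CPM in WT and 76.4 ± 31.8 CPM in KO on day 0 (SD, n = 4 and 5), 173 ± 47.1 and 144 ± 119 CPM on day 3 (n = 7 and 8), and 332 ± 127 and 139.6 ± 71.5 CPM on day 7 (n = 7 and 7). In 3 libraries Hk2 went against the label. The library labelled d3_KO_345 had 435 CPM, where the rest of the KO day 3 group ranged from 68.4 to 127.9 CPM. The library labelled d3_WT_346 had 97.0 CPM, within that KO range, and the rest of the WT day 3 group ranged from 143 to 220 CPM. On day 7 the library labelled d7_KO_420 had 268 CPM, within the WT day 7 range of 228 to 611 CPM, and the rest of its group ranged from 56.1 to 194 CPM. Whether labels were exchanged was not tested, and the labels were kept. For some of the results that use these libraries, values without them are given as well. The 7 epithelial markers, among them Epcam, Krt8 and Cdh1, summed to 7464 to 13378 CPM in every library, and the colon gene Car1 was present in all. The 7 Paneth cell genes found summed to 34.4 CPM at most, with Defa22 at 0 in 5 of the 6 groups and Lyz1, Mmp7 and Itln1 at 0 in none. The 9 small intestine genes, Sis and Apoa1 among them, summed to 54.6 to 483 CPM, and none was at 0 throughout a group. Leukocyte markers, summed over 12 genes, ran from 26.8 to 187 CPM on day 3 and from 238 to 1663 CPM on day 7.

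The sequence before the start of transcription is shown for St3gal5, St3gal6 and St6gal1, on whose values most of the results below turn. Promoter windows from RefSeq (build GRCm38.p6, 250 bases before to 50 after a start) were matched for 7 of the 10 genes, in 13 windows of 300 bases. St3gal5 lies on chromosome 6 and its window is chr6:72097358-72097657 on the plus strand, St6gal1 lies on chromosome 16 with its first window at chr16:23224490-23224789 on the plus strand, and St3gal6, on the minus strand of chromosome 16, has an upstream start with the window chr16:58524204-58524503 and a downstream start with the window chr16:58523377-58523676. Capitals mark matches to 3 short motifs, searched on both strands, where a match on the other strand appears as its reverse complement and neighbouring matches may overlap. The motif of the promoter element known as the GC box was searched as GGGCGG in these windows. For CDX factors, which set the identity of intestinal cells, the motif searched was TTTATG over the same windows. For GATA factors, which also act in the gut, the motif searched was AGATAA likewise. The letters TTCNNNGAA, of the kind bound by STAT factors, were searched too.
St3gal5 window: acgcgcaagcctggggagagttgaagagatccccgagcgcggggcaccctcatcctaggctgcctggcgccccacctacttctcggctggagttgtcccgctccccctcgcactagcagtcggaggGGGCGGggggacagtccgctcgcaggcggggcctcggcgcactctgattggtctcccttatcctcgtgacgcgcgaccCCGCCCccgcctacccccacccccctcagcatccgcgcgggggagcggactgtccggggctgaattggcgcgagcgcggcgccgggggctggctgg
St6gal1 window: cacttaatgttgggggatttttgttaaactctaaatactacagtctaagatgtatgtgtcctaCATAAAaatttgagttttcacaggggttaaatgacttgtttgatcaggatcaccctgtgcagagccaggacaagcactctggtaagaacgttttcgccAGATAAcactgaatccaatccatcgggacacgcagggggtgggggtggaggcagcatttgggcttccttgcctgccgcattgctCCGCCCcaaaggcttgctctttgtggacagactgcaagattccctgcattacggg
St3gal6 upstream start: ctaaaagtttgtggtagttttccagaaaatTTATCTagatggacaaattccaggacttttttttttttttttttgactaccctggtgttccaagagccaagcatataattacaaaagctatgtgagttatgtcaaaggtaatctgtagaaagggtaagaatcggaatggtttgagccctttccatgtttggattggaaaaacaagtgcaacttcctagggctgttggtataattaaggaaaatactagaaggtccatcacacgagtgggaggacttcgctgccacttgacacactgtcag
St3gal6 downstream start: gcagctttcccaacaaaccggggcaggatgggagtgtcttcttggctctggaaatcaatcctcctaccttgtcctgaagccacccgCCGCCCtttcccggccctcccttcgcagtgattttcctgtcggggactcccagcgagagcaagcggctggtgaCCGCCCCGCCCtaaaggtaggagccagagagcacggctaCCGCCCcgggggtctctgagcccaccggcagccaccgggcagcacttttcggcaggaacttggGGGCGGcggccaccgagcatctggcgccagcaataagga
The St3gal5 window held 72.67% G and C, 33 CpG pairs and 2 GC boxes, against a median of 52.7% and 7 CpG pairs over all 32851 windows. The 2 St3gal6 windows differed, the upstream one with 38.67% G and C, 3 CpG pairs and 1 GATA motif, and the downstream one with 64.67% G and C, 20 CpG pairs and 5 GC boxes. St6gal1 had 1 CDX motif, 1 GATA motif and 1 GC box in its first window, of 48% G and C. Its windows 2 and 3, which are not shown, held 0 matches to any of the motifs. Of all windows, 35.7% hold a GC box, 11.9% the CDX letters, 11.2% the GATA letters and 8.3% the STAT letters, which are in none of the windows shown. These matches describe the letters and were not tested against the expression values.

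**Figure D1:**
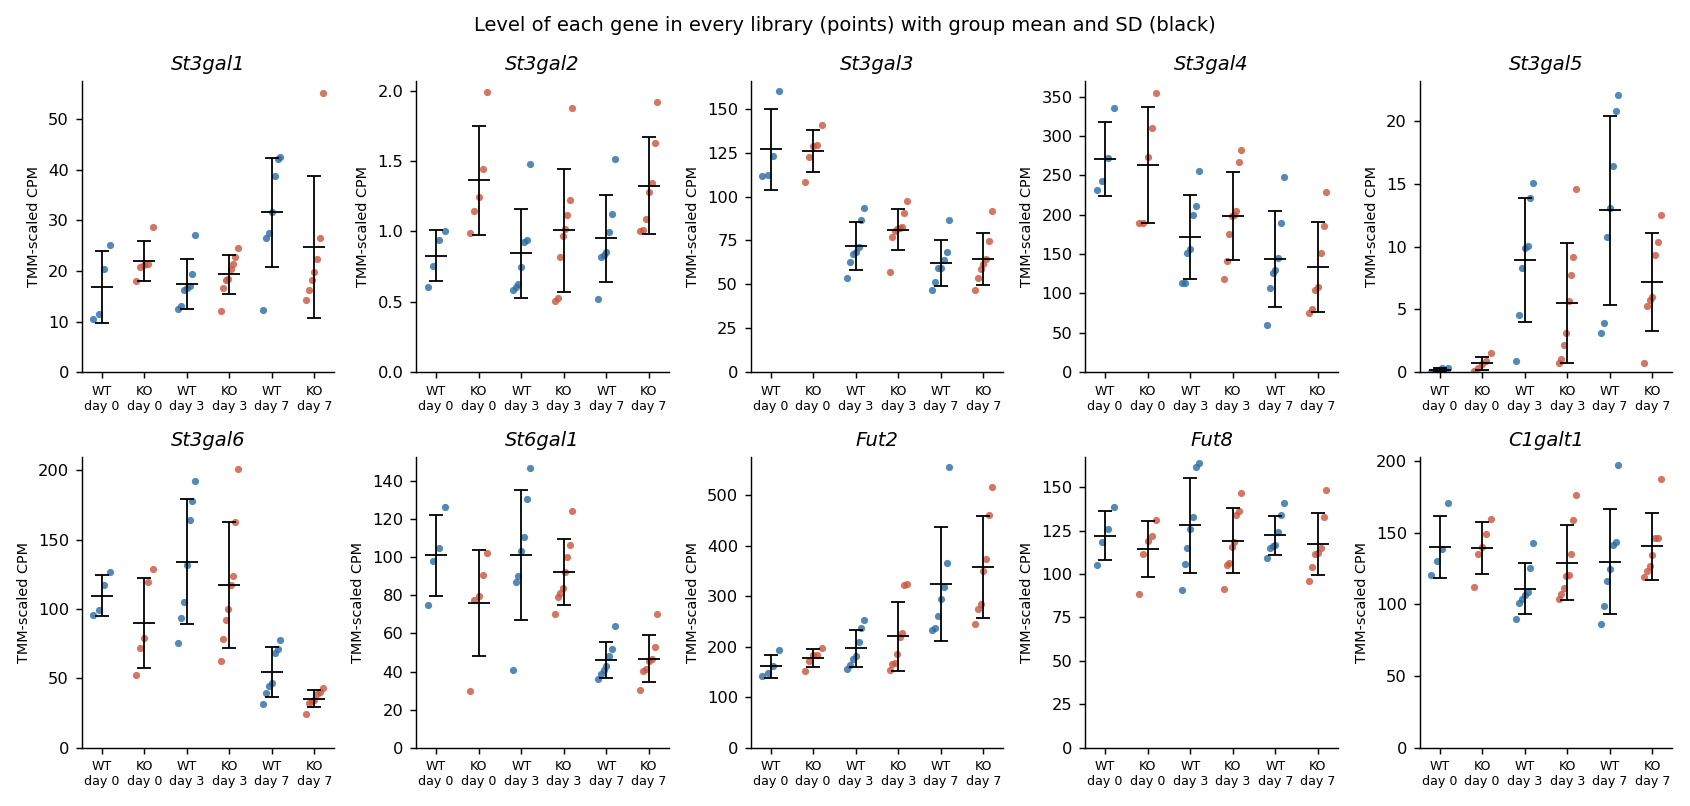
TMM-scaled CPM (y axis, linear from 0, a separate scale for each gene) of the 10 genes in each library (points; blue WT, red KO) by genotype and day, with the group mean and SD in black. St6gal1 and St3gal6 sit lower on day 7 than on day 3 in both genotypes, Fut2 sits higher, and St3gal5 is near 0 in the 4 WT day 0 libraries.

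The first comparison asks how the genes differed between 3 and 7 days of DSS, within each genotype. St6gal1 and St3gal6 fell and Fut2 rose in WT and in KO, and St3gal1 rose in WT. Thus in WT 2 genes rose and 2 fell of the 9 tested, where 10.6% of all 15541 genes tested rose, 8.7% fell and 19.3% were called in either direction. In KO 1 rose and 2 fell of the 10 tested, where 10.5% of 15568 genes rose, 8.83% fell and 19.3% were called. Calls are at an adjusted p under 0.05 in the edgeR quasi-likelihood test with Benjamini-Hochberg adjustment over all genes tested, as for every adjusted p below. The median log2 fold change was 0.03 over the 10 genes and 0.01 over all genes in WT, and 0.01 and -0.01 in KO. No p is given for St3gal5 in comparisons that use WT libraries of day 0 or day 3, because its difference between those groups was known when the genes were chosen. Bulk samples cannot tell fewer cells of a type from less RNA per cell.

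St6gal1 (ENSMUSG00000022885, chr16:23224740-23360350 in GRCm38, as all gene positions below) is the main enzyme that puts sialic acid on the sixth carbon of galactose in N-glycans. Its lowest, median and highest levels in WT were 40.9, 103 and 147 CPM on day 3 and 36.1, 43.1 and 63.9 CPM on day 7; it fell by 1.16 on the log2 scale (SE 0.21, adjusted p = 0.00159). No gene of the 10 had groups without overlap in WT, as 4.6% of all genes tested did. The St6gal1 groups overlapped through 1 day 3 library, d3_WT_381, at 40.9 CPM, and the other 6 lay above every day 7 library. In KO they were 70.4, 88.1 and 124 CPM on day 3 and 30.5, 45.5 and 70.5 CPM on day 7; it fell by 1.01 (SE 0.16, adjusted p = 2.99e-04). Those groups met only at 70.4 and 70.5 CPM, in d3_KO_349 and d7_KO_423, and the highest day 3 value was that of d3_KO_345. Without d3_KO_345 it fell by 0.95 (adjusted p = 3.74e-04). On day 0 the WT levels were 74.9, 97.9, 105 and 126 CPM and the KO levels 29.6, 77.5, 79.9, 90.5 and 102 CPM, the lowest being d0_KO_32. An antisense gene, BC106179, overlaps exons of St6gal1, and counting ignored strand, so reads of the pair cannot be told apart.

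St3gal6 (ENSMUSG00000022747, chr16:58468125-58524243) adds sialic acid to the third carbon of galactose, mainly on glycolipids and on chains that become sialyl Lewis structures. Its lowest, median and highest levels in WT were 75.2, 132 and 192 CPM on day 3 and 31.9, 47.0 and 78.0 CPM on day 7; it fell by 1.32 (SE 0.24, adjusted p = 0.00156). Only d3_WT_381 at 75.2 CPM and d7_WT_386 at 78.0 CPM crossed. In KO they were 62.3, 109 and 201 CPM on day 3 and 24.4, 34.5 and 43.3 CPM on day 7; it fell by 1.77 (SE 0.22, adjusted p = 5.57e-05), and fell by 1.81 without d3_KO_345 (adjusted p = 4.69e-05). Here the groups did not overlap, which was so for 5.07% of the genes tested in KO. On day 0 the levels were 95.7, 99.0, 117 and 127 CPM in WT and 52.1, 71.9, 79.2, 119 and 129 CPM in KO, all above the highest day 7 library of their genotype. St3gal6 shares exons with the antisense gene Dcbld2, so its reads are uncertain in the same way.

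Fut2 (ENSMUSG00000055978, chr7:45648595-45666308), the secretor gene, fucosylates the ends of mucin and surface glycans. Its lowest, median and highest levels in WT were 156, 183 and 252 CPM on day 3 and 233, 295 and 555 CPM on day 7, a rise of 0.69 on the log2 scale (SE 0.18, adjusted p = 0.0132). In KO they were 155, 202 and 324 CPM on day 3 and 245, 349.9 and 516 CPM on day 7, a rise of 0.66 (SE 0.19, adjusted p = 0.0247). The groups overlapped in both genotypes. The KO call was lost on leaving out d3_KO_349 (adjusted p = 0.0517), d7_KO_367 (0.0631) or d7_KO_368 (0.0580), with log2 fold changes of 0.55 to 0.61, and was kept without d3_KO_345, at 0.75 (adjusted p = 0.0100). The day 0 levels were 142, 148, 161 and 193 CPM in WT and 151, 171, 183, 183 and 198 CPM in KO, lower than every day 7 library. The ratio of Fut2 to St6gal1, each per kb of exon, was 3.65 ± 1.31 in WT day 3 and 12.3 ± 4.07 in WT day 7 (SD, n = 7 and 7), and 4.09 ± 0.842 and 13.5 ± 4.05 in KO (n = 8 and 7). On day 0 the ratio was 2.79 ± 0.414 in WT and 4.67 ± 2.31 in KO (n = 4 and 5). It ranged from 2.49 to 3.40 in WT and from 3.08 to 8.76 in KO, where the highest was d0_KO_32, the library lowest in St6gal1. Mitochondrial ribosomal RNA took 45.6% of the counts of that library, and its St6gal1 level rested on 252 counts.

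St3gal1 (ENSMUSG00000013846, chr15:67102875-67113992) caps the core galactose of O-glycans, the product of C1galt1, with sialic acid. In WT its lowest, median and highest levels were 12.5, 16.6 and 27.1 CPM on day 3 and 12.4, 31.6 and 42.5 CPM on day 7, a rise of 0.84 (SE 0.23, adjusted p = 0.0183). Library d7_WT_386 held the lowest value of both groups, and the other day 7 libraries had at least 26.5 CPM. In KO they were 12.1, 19.4 and 24.6 CPM on day 3 and 14.3, 19.7 and 55.3 CPM on day 7, with a log2 fold change of 0.31 (SE 0.24, adjusted p = 0.44). That value rested on the library labelled d7_KO_420, which also had Hk2 within the WT range, at 55.3 CPM, and was -0.02 without it. The difference between the genotypes in this change was -0.52 (SE 0.35, adjusted p = 1.00). With 1 library left out at a time it ranged from -0.84 to -0.43 (lowest adjusted p = 0.495), with no call. The call in WT alone therefore does not show that the genotypes differ.

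The 4 other St3gal genes, of which St3gal5 is given no test in WT, were not called between days 3 and 7 in either genotype. St3gal4 (ENSMUSG00000032038, chr9:35046579-35116810), which caps N-glycans and selectin ligands, went from a median of 156 CPM to one of 130.4 CPM in WT (log2 fold change -0.27, SE 0.26, adjusted p = 0.53) and from 199 to 109 CPM in KO (-0.61, SE 0.25, adjusted p = 0.0995). In KO it was called only without d7_KO_367 (-0.79, adjusted p = 0.0306). The day 7 libraries spread from 60.1 to 249 CPM in WT and from 74.7 to 229 CPM in KO, around the day 3 ranges of 113 to 255.5 and 118 to 282 CPM. St3gal4 also shares exons with an antisense gene, 4930581F22Rik. St3gal3 (ENSMUSG00000028538, chr4:117932154-118134914), which sialylates Lewis-type chains, had medians of 68.7 and 59.2 CPM in WT (-0.23, SE 0.14, adjusted p = 0.287) and of 82.0 and 61.8 CPM in KO (-0.37, SE 0.13, adjusted p = 0.0534). The KO value was called without d3_KO_351 (adjusted p = 0.0197), d7_KO_420 (0.00646) or d7_KO_423 (0.0449), without d3_KO_345 and d7_KO_420 together (0.00814), and by the DESeq2 Wald test (0.0365). St3gal2 (ENSMUSG00000031749, chr8:110919922-110972480), an enzyme of gangliosides and O-glycans, was the least expressed of the group, at 0.502 to 1.92 CPM on both days (0.15, SE 0.25, adjusted p = 0.727 in WT and 0.37, SE 0.26, adjusted p = 0.375 in KO).

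St3gal5 (ENSMUSG00000056091, chr6:72097592-72154571) makes GM3, the first ganglioside, from lactosylceramide. It varied widely between libraries of 1 group. Its lowest, median and highest levels were 0.877, 9.85 and 15.1 CPM in WT day 3, 0.705, 4.37 and 14.6 CPM in KO day 3, 3.15, 13.1 and 22.1 CPM in WT day 7 and 0.751, 6.01 and 12.5 CPM in KO day 7. From day 3 to day 7 the log2 fold change was 0.52 in WT, given with no test, and 0.33 in KO (SE 0.58, adjusted p = 0.756), and all 4 groups overlapped. Fut8 (ENSMUSG00000021065, chr12:77238104-77476338) and C1galt1 (ENSMUSG00000042460, chr6:7844842-7872047) were not called either. Fut8 had medians of 126 and 117 CPM in WT (log2 fold change -0.09, SE 0.12, adjusted p = 0.671) and of 117 and 112 CPM in KO (-0.06, SE 0.11, adjusted p = 0.746). C1galt1 had medians of 106 and 125 CPM in WT (0.20, SE 0.15, adjusted p = 0.397) and of 120.1 and 135 CPM in KO (0.08, SE 0.12, adjusted p = 0.702).

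**Figure D2:**
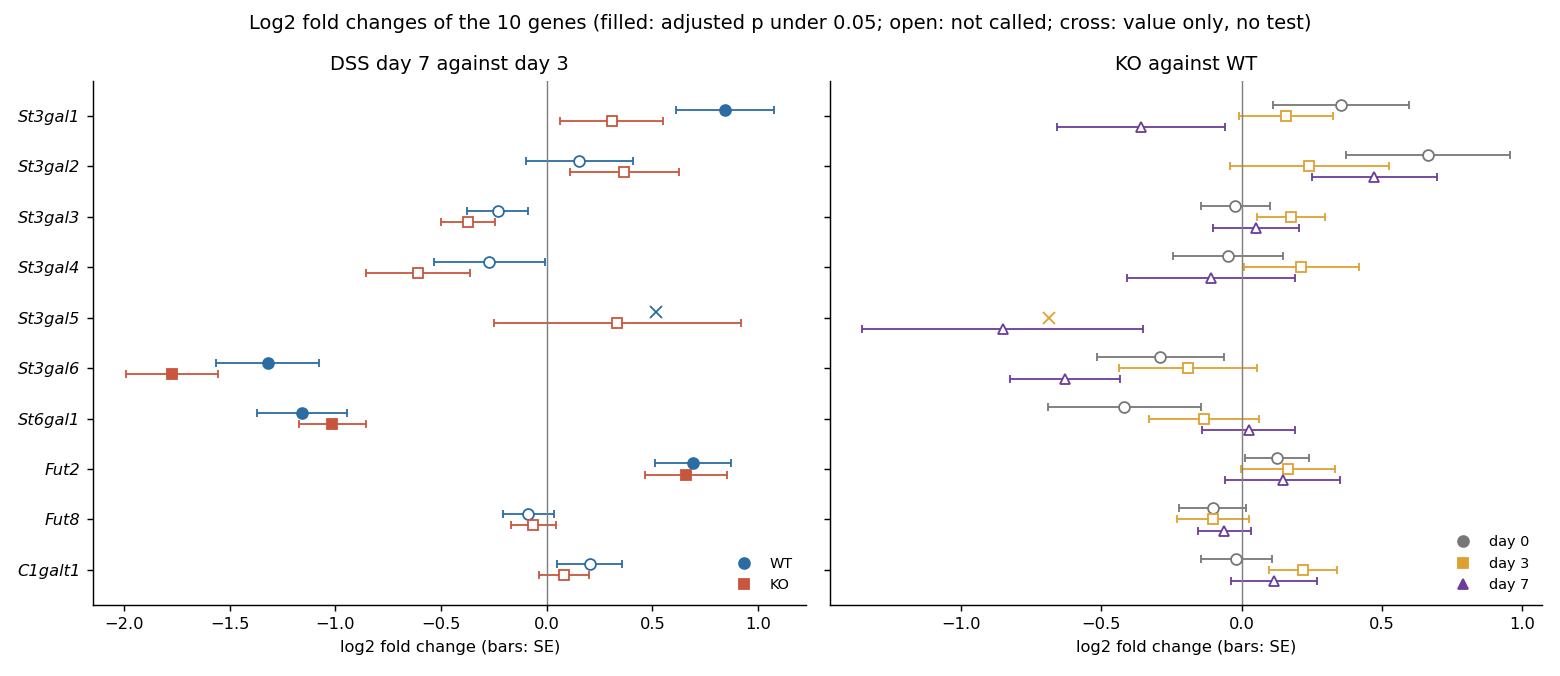
Log2 fold changes of the 10 genes (x axis; bars are SE) for day 7 against day 3 in WT (blue circles) and KO (red squares), left, and for KO against WT on day 0 (grey circles), day 3 (yellow squares) and day 7 (purple triangles), right. Filled symbols are called at an adjusted p under 0.05, open ones are not, and crosses are values with no test. On the left St3gal6 and St6gal1 lie at -1.01 or lower and Fut2 at 0.66 and 0.69, and no symbol on the right is filled.

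Other cells and cell states moved with the same days. The score of leukocyte markers (mean log2 CPM over 12 genes) was -0.13 to 0.99 in WT day 3 and 3.07 to 5.38 in WT day 7, and 0.66 to 2.8 and 3.23 to 5.2 in KO, so that it did not overlap between the days. With that score in the model no gene of all those tested was called in either genotype, and day and score cannot be told apart. Fut2 then had 0.19 in WT (SE 0.52, adjusted p = 0.889) and 0.065 in KO (SE 0.47, adjusted p = 0.971), St6gal1 had -1.20 (SE 0.65, adjusted p = 0.494) and -0.96 (SE 0.36, adjusted p = 0.382), and St3gal6 had 0.35 (SE 0.58, adjusted p = 0.812) and -1.06 (SE 0.52, adjusted p = 0.478). The goblet score, over 8 genes of mucus-secreting cells, was 8.96 to 9.92 in WT day 3 and 8.72 to 9.32 in WT day 7, and 9.35 to 9.93 and 8.32 to 9.28 in KO. With the goblet score as a covariate the St6gal1 values were -0.40 in WT (SE 0.18, adjusted p = 0.321) and -0.33 in KO (SE 0.26, adjusted p = 0.54), those of St3gal6 -0.96 (SE 0.32, adjusted p = 0.158) and -1.74 (SE 0.47, adjusted p = 0.0992), and those of Fut2 0.85 (SE 0.27, adjusted p = 0.131) and 1.41 (SE 0.41, adjusted p = 0.12). The colon position score, over 5 genes of position along the gut, Hoxd13 and Hoxb13 among them, was 3.24 to 5.92 in WT day 3 and 2.47 to 4.58 in WT day 7, and 4.43 to 5.61 and 1.43 to 3.71 in KO. With it as a covariate St3gal6 had -0.70 in WT (SE 0.20, adjusted p = 0.0646) and -1.06 in KO (SE 0.45, adjusted p = 0.773), St6gal1 had -1.14 (SE 0.30, adjusted p = 0.0501) and -0.93 (SE 0.34, adjusted p = 0.707), and Fut2 had 0.64 (SE 0.27, adjusted p = 0.191) and 0.55 (SE 0.44, adjusted p = 0.970). No gene of the 10 with a p, which St3gal5 lacked in WT, was called with any of the 3 scores in the model. Calls over all genes were also far fewer with each score than without, so the loss is not particular to these genes. In KO the goblet and colon position scores did not overlap between the days either. Day and score cannot be told apart there.

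Within the 4 groups of days 3 and 7, with each value centred on its group mean, St6gal1 followed the goblet score (Pearson r = 0.74) and St3gal6 the colon position score (r = 0.74) over 29 libraries. The leukocyte score had r = -0.09 with St6gal1, -0.43 with St3gal6 and 0.16 with Fut2. For the same genes in that order, macrophage markers had r = 0.14, -0.40 and 0.49, and markers of stroma and endothelium 0.40, -0.17 and 0.43. In these correlations a score holds only those of its markers that passed a filter on mean level. St3gal1 ran against the colon position score (r = -0.61). These are descriptions over libraries that share their scaling, with no p. Library d3_WT_381, the WT day 3 library low in St6gal1 and St3gal6, also had the lowest goblet score of its group, at 8.96. It also had the fewest genes detected of all libraries and the most mitochondrial ribosomal RNA of days 3 and 7, at 3.95%. Whether these bear on its values was not tested.

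**Figure D3:**
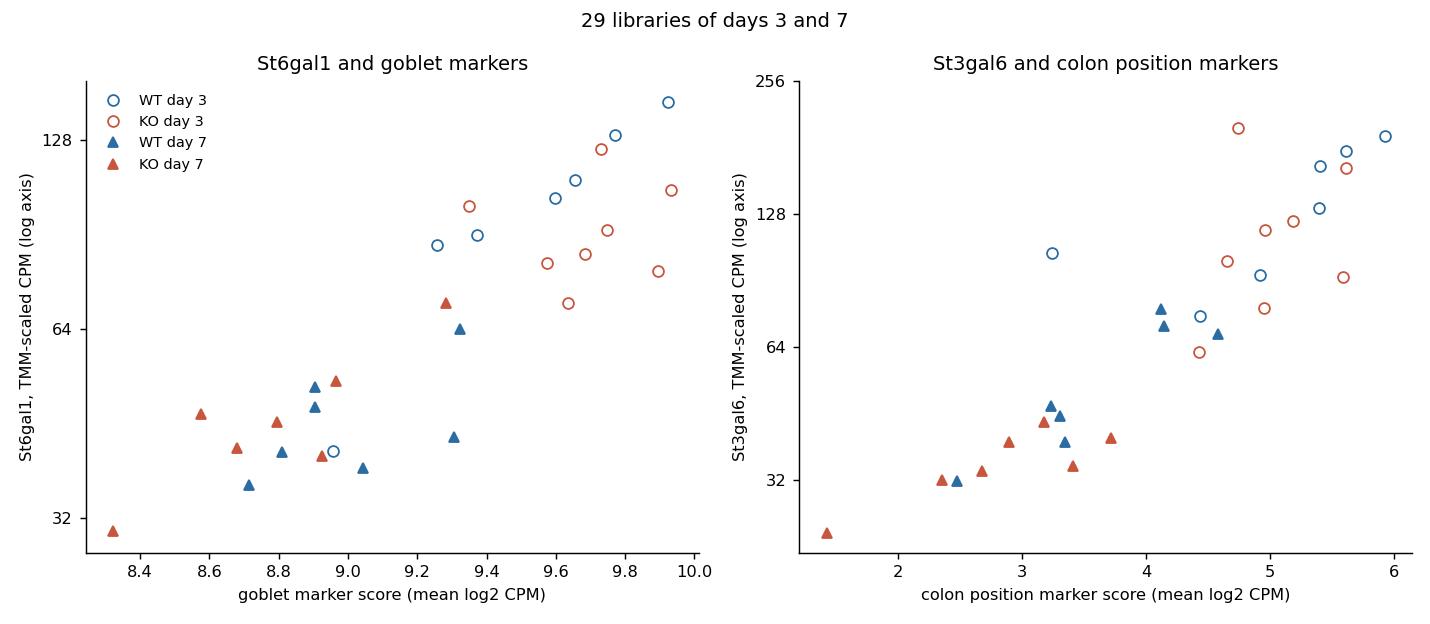
TMM-scaled CPM (y axis, log scale) of St6gal1 against the goblet marker score, left, and of St3gal6 against the colon position marker score, right, where a score is the mean log2 CPM of its markers, in the 29 libraries of day 3 (open circles) and day 7 (filled triangles; blue WT, red KO). Libraries low in the score are low in the gene, with the day 3 library d3_WT_381 at 40.9 CPM of St6gal1 among the day 7 libraries.

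The wider pathway was read from 7 lists of other genes, 64 of which were tested in each genotype. The lists were chosen with earlier results of these data known, so counts of called genes in them are a description only. Of these, 7 rose and 15 fell in WT from day 3 to day 7, where 10.6% of all genes tested rose and 8.7% fell. In KO 5 rose and 13 fell, where 10.5% of all genes rose and 8.83% fell. The 14 genes called in both genotypes, all with the same sign, are 63.6% of those called in WT and 77.8% of those called in KO. Over all genes 1871 were called in both, all with the same sign, 62.3% of those called in WT and 62.2% of those called in KO. The steepest fall was that of Fut9, which makes Lewis x, from 10.5 ± 6.91 to 0.731 ± 1.06 CPM in WT (n = 7 and 7; log2 fold change -4.01, SE 0.69, adjusted p = 0.00100) and from 8.23 ± 8.10 to 0.348 ± 0.173 CPM in KO (n = 8 and 7; -4.58, SE 0.63, adjusted p = 1.33e-04). Fut4, another enzyme of Lewis x, fell by 0.88 in WT and by 0.96 in KO, and the other 5 fucosyltransferases tested did not pass. Among the 6 other sialyltransferases tested, St6galnac4, which sialylates the base of capped O-glycans, fell by 1.22 in WT and by 0.97 in KO, and St8sia5, a ganglioside enzyme, fell by 2.29 and by 2.56. St8sia4, a polysialyltransferase, rose by 1.56 in WT and by 1.30 in KO, and St8sia1, the GD3 synthase, rose by 1.62 in WT, from means of 0.974 and 0.309 CPM in WT day 3. St8sia1 was not called in KO, and its WT call held in 5 of 8 other settings. With 1 library left out at a time, the WT calls of St8sia4 and St8sia5 each held in 12 of 14 fits, and that of St8sia1 in all 14. Of the sialidases and editing genes, 4 of 6 fell in WT and 2 of 6 in KO (8.7 and 8.83% of all genes), led by Neu3, the sialidase of gangliosides at the cell membrane, by 2.54 and by 2.58. With 1 library left out at a time, the WT calls of Casd1 and Siae each held in 9 of 14 fits. Those of Neu2 and Neu3 held in all 14.

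Of the O-glycan genes 2 of 19 rose in each genotype, a share near that over all genes (10.6% in WT and 10.5% in KO), and 3 of 19 fell, where 8.7 and 8.83% of all genes did. B3gnt7, which extends poly-lactosamine chains, fell by 1.93 in WT and by 2.14 in KO, and Gcnt4, a branching enzyme, rose by 1.52 and by 1.10. Of 9 N-glycan genes, Mgat4a, a branching enzyme, fell by 0.59 in WT and by 0.62 in KO, and Mgat4b rose by 0.47 and B4galt1 by 0.46 in WT, with KO values of 0.35 (adjusted p = 0.102) and 0.39 (adjusted p = 0.0645). The WT call of B4galt1 held in 5 of 14 fits with 1 library left out, and that of Mgat4b in all 14. Of 9 donor supply genes 2 were called in WT, near the share over all genes (19.3%), and 3 in KO (19.3% of all genes). Gmds, the first enzyme of GDP-fucose synthesis, was up by 0.33 in WT and by 0.34 in KO. Fpgt was down by 0.27 and by 0.36, and Nans, the sialic acid synthase, was down by 0.47 in KO. With 1 library left out at a time, the WT calls of Gmds and Fpgt each held in 7 of 14 fits. The KO calls of Gmds, Fpgt and Nans held in all 15. C1galt1c1, the chaperone that C1galt1 needs, had a log2 fold change of 0.15 in WT (adjusted p = 0.401) and 0.09 in KO (adjusted p = 0.548).

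**Figure D4:**
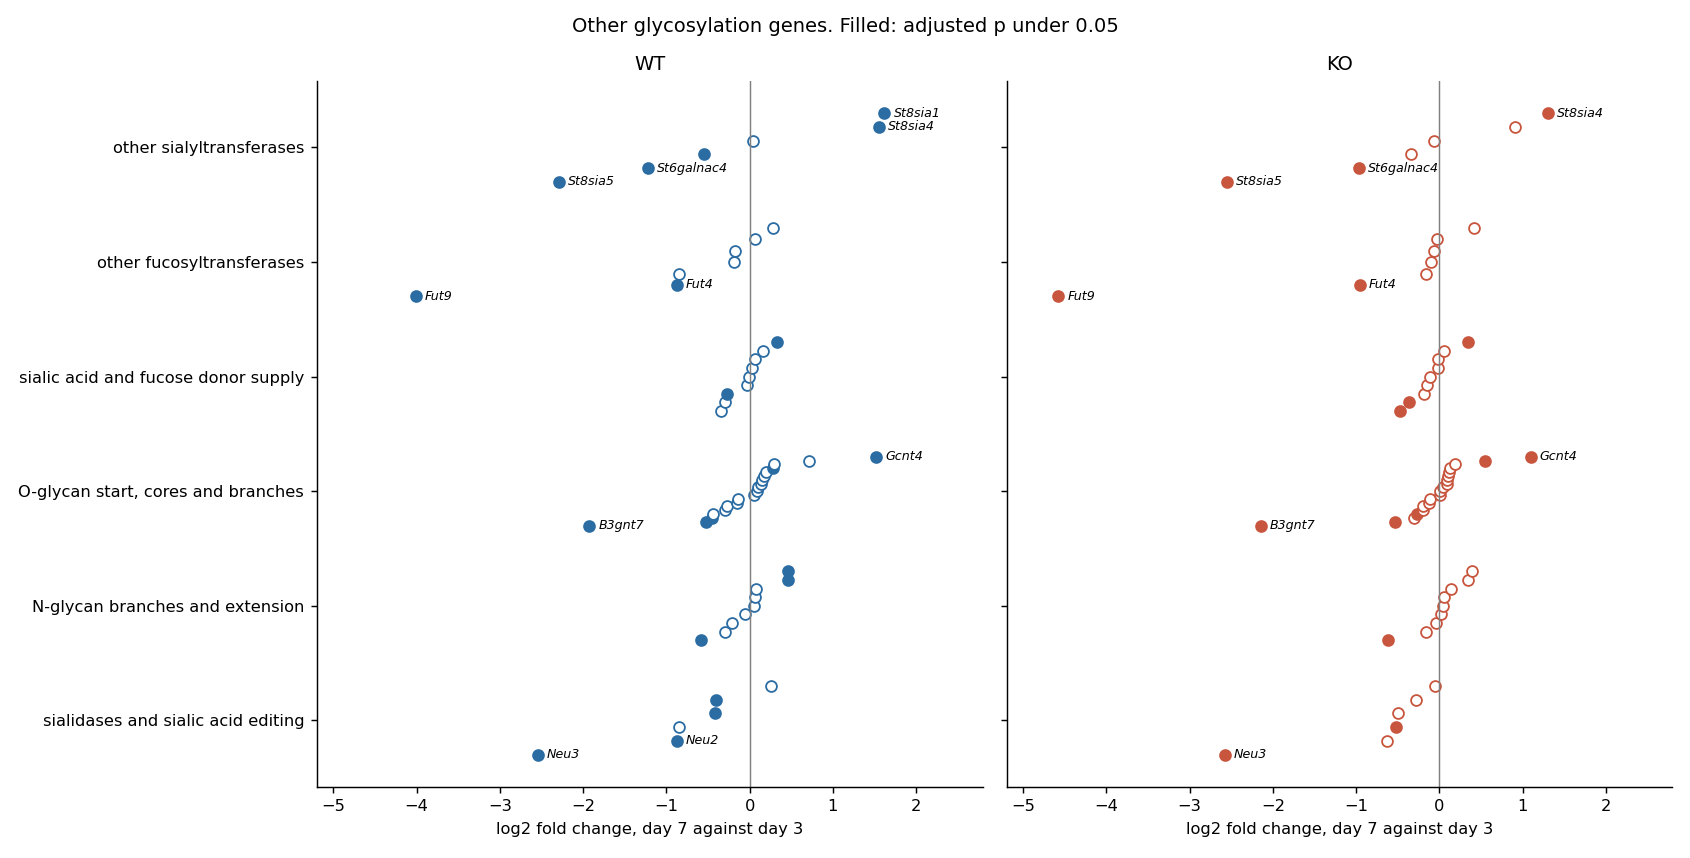
Log2 fold change from day 3 to day 7 (x axis) of the other glycosylation genes in 6 of the 7 lists (y axis) in WT, left, and KO, right, each circle 1 gene, filled where the adjusted p is under 0.05. Fut9 lies farthest to the left at -4.01 and -4.58, and Neu3, B3gnt7 and St8sia5 lie at -1.93 or lower in both genotypes.

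The second comparison asks what deletion of Hk2 changed on each day. No gene of the 10 with a p, which St3gal5 had only on day 7, was called between KO and WT on day 0, where 0.0335% of all genes tested were called, on day 3 (0.00647%), on day 7 (0.00642%), or over days 3 and 7 together (0.0122%). At an unadjusted p under 0.05 the same edgeR test marked 1 gene on day 0, 0 on day 3, 1 on day 7 and 1 over both days, where 10.5, 7.88, 12.9 and 21.5% of all genes passed. The DESeq2 Wald test called 0 of those with a p in each comparison as well. Over all genes it called 117 higher and 58 lower of 14944 on day 0, and 1 and 1 of 15461 on day 3. On day 7 it called 39 and 50 of 15584, and over both days 189 and 377 of 16371. Without the libraries whose Hk2 went against the label, an alternative chosen after seeing the data, 0 of the genes with a p were called on day 3, on day 7 and over both days, while the count over all genes went from 2 to 1333 of 16433 over both days and was 1 on day 3. The gene marked on day 0 was St3gal2, at 0.606, 0.755, 0.942 and 1.00 CPM in WT and 0.992, 1.15, 1.25, 1.44 and 1.99 CPM in KO (log2 fold change 0.67, SE 0.29, adjusted p = 0.463). The highest KO value was that of d0_KO_32, from 17 counts, or 0.972 CPM without TMM scaling. On day 7 and over both days the gene marked was St3gal6, whose median was 47.0 CPM in WT day 7 and 34.5 CPM in KO day 7 (-0.63, SE 0.20, adjusted p = 0.291 on day 7; -0.40, SE 0.17, adjusted p = 0.171 over both days). Its day 7 ranges, 31.9 to 78.0 and 24.4 to 43.3 CPM, overlapped. With 1 library left out at a time its values were -0.73 to -0.52 on day 7 and -0.49 to -0.34 over both days, with no call.

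St3gal5 had the widest difference between the genotypes on day 7, at -0.85 on the log2 scale (SE 0.50, adjusted p = 0.459), and -0.79 without d7_KO_420 (adjusted p = 0.382). On day 3 its value was -0.69, given with no test, or -0.52 without d3_KO_345, -0.51 without d3_WT_346 and -0.35 without both. St3gal1 differed by -0.36 on day 7 (SE 0.30, adjusted p = 0.602), and by -0.69 without d7_KO_420 (SE 0.23, adjusted p = 0.107). Fut2 differed by 0.13 on day 0 (SE 0.11, adjusted p = 0.714), 0.17 on day 3 (SE 0.17, adjusted p = 0.763; 0.075 without d3_KO_345, 0.23 without d3_WT_346) and 0.15 on day 7 (SE 0.21, adjusted p = 0.769). St6gal1 differed by -0.42 on day 0 (SE 0.27, adjusted p = 0.606), -0.13 on day 3 (SE 0.20, adjusted p = 0.836; -0.20 without d3_KO_345, -0.062 without d3_WT_346) and 0.03 on day 7 (SE 0.17, adjusted p = 0.96). St3gal3, St3gal4, Fut8 and C1galt1 lay between -0.11 and 0.22 on every day, and between -0.19 and 0.29 on days 3 and 7 without any of the libraries whose Hk2 went against the label or without both of day 3. The change of the genotype difference from day 3 to day 7 was called for none of the 9 genes with a p, with adjusted p of 1.00 in the edgeR test and 0 genes called among 16371 (0%), by DESeq2 0 of the 9 as well. At an unadjusted p under 0.05 it marked 2.69% of all genes and 0 of the 9. Of the other listed genes edgeR called 0 between the genotypes on any day or over both days, and DESeq2 called 3 on day 0 and 2 over days 3 and 7. Over all genes DESeq2 called 117 higher and 58 lower of 14944 on day 0, and 189 and 377 of 16371 over both days.

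Levels on day 0 against DSS are a description, with no test, since some of these values were known when the genes were chosen and the day 0 libraries form another series. St3gal5 stood out, with 0 counts in d0_WT_43, 3 counts (0.142 CPM) in d0_WT_41, 14 counts (0.287 CPM) in d0_WT_46 and 5 counts (0.303 CPM) in d0_WT_31. The count of 0 allows up to 0.236 CPM at that depth, for counting error only. In KO day 0 its levels were 0.117, 0.298, 0.637, 0.865 and 1.5 CPM. The fitted log2 fold changes were 5.38 in WT and 2.91 in KO for day 3 against day 0, and 5.91 and 3.26 for day 7, which share the day 0 libraries. Without d0_KO_53, the highest, the KO values were 3.45 and 3.80. Every WT library of days 3 and 7 lay above every WT day 0 library, while d3_KO_387 at 0.705 CPM, d3_KO_345 at 1.02 CPM and d7_KO_421 at 0.751 CPM lay within the KO day 0 range.

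St3gal5 was the only gene of the 10 at least 1 log2 unit higher than on day 0 in each of the 4 contrasts, where 5.55% of genes in WT day 3, 5.13% in KO day 3, 11.2% in WT day 7 and 9.94% in KO day 7 were. Fut2 came near to that on day 7, at 0.98 in WT and 0.99 in KO. None was 1 unit lower on day 3 (16.1 and 11.2% of all genes), and on day 7 there were 3 in WT, St6gal1 at -1.16, St3gal3 at -1.06 and St3gal6 at -1.04, and 2 in KO, St3gal6 at -1.38 and St3gal4 at -1.01 (18.7 and 15.3% of all genes). St3gal3 had 112, 112, 123 and 160.2 CPM in WT day 0 and 108, 122, 129, 129.7 and 141 CPM in KO day 0, and every DSS library lay below these, at 46.5 to 97.5 CPM. Groups without overlap were found for St3gal3 in all 4 contrasts, for St3gal6 and Fut2 on day 7 in both genotypes, for St3gal5 in WT on both days and for St6gal1 in WT day 7, where 31.2, 23.9, 39.1 and 34.3% of all genes did not overlap in WT day 3, KO day 3, WT day 7 and KO day 7. The log2 fold changes of Fut8 lay between -0.03 and 0.07 and those of C1galt1 between -0.35 and -0.01.

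Ordered by group mean, few neighbours differed by more than the larger of their SDs. For St3gal5 the order was WT day 7, WT day 3, KO day 7, KO day 3, KO day 0 and WT day 0, and only the step from KO day 3 (5.52 ± 4.8 CPM, n = 8) to KO day 0 (0.683 ± 0.540 CPM, n = 5) exceeded that spread. For St3gal3 it was the step from KO day 0 (126 ± 11.8 CPM, n = 5) to KO day 3 (81.2 ± 11.7 CPM, n = 8). For St3gal6 and St6gal1 it was the step down to the day 7 groups, and St3gal6 was lower again in KO day 7 (35.2 ± 6.21 CPM) than in WT day 7 (54.4 ± 18 CPM, n = 7 in each). No neighbours differed beyond their spread for the other 6 genes.

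Per kb of exon, which allows genes to be compared, St3gal4 was the most abundant of the St3gal genes in every group. It made up 59.4 to 66.2% of their summed level in the means of the 6 groups, and St3gal3 19.2 to 24%. St3gal6 made up 9.08 ± 1.63% in WT day 0, 15.9 ± 4.48% in WT day 3 and 7.98 ± 2.66% in WT day 7 (SD, n = 4, 7 and 7), and 7.57 ± 2.04%, 12.6 ± 4.36% and 5.75 ± 0.865% in KO (n = 5, 8 and 7). St3gal5 went from 0.0342 ± 0.0277% in WT day 0 to 2.73 ± 1.82% in WT day 3 and 4.56 ± 2.52% in WT day 7. In KO its shares were 0.146 ± 0.143%, 1.45 ± 1.33% and 2.86 ± 1.63%. St3gal1 held 1.67 to 6.2% and St3gal2 0.0840 to 0.270% in the group means. Fut2 was the most abundant of all 10 on day 7, at 113 ± 39.4 CPM per kb in WT and 125 ± 35.2 CPM per kb in KO, whereas on day 0 St3gal4 was, at 133 ± 23.2 and 129.98 ± 36.3 CPM per kb.

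**Figure D5:**
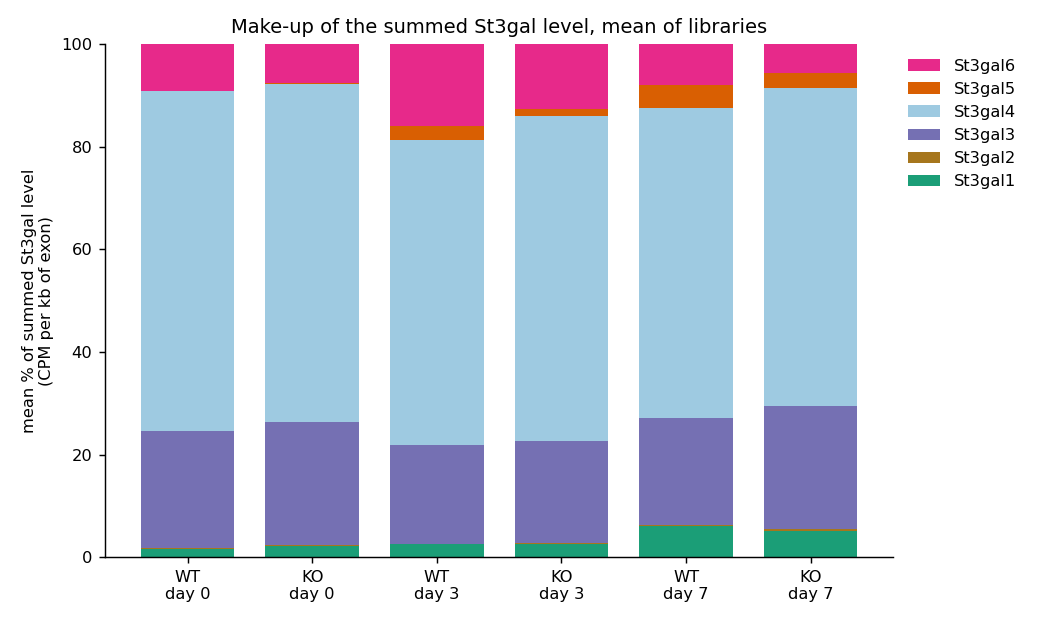
Stacked bars of the mean percent of the summed level of the 6 St3gal genes, in CPM per kb of exon (y axis, from 0), by genotype and day. St3gal4 and St3gal3 fill most of each bar, St3gal6 is widest in WT day 3 at 15.9%, and St3gal5 appears from day 3 on.

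The genes with the most similar pattern were sought over the 29 libraries of days 3 and 7, among 10546 genes with values centred on the group means. Among the closest were Mpp6 (Pearson r = 0.87) and Matn2 (0.86) for St3gal5, C1galt1 with Raph1 (0.89), St6gal1 with Cacna1b (0.88), St3gal1 with Lats2 (0.88) and Fut2 with Kcnk6 (0.88), Cpne3 (0.88) and Copg1 (0.86). Further ones were Tmed10 (0.80) for St3gal3, Rab3d (0.78) for Fut8, Snx5 (0.77) for St3gal4 and Lamc1 (0.77) for St3gal2. Among the 10 genes themselves the closest pairs were Fut2 with C1galt1 (r = 0.64) and St3gal6 with Fut8 (0.61). These values describe libraries that share depth and scaling, and carry no p.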

How the data were processed

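The deposited files hold whole-number counts of fragments per gene, made by the authors with featureCounts 1.6.2 without regard to strand, per the file headers. The submitters' processing notes name Trim Galore, STAR, featureCounts 1.5.2 and the build GRCm38. The 76 files are 2 lanes for each of 38 libraries, which were summed after the lanes were compared (lowest correlation of log counts 0.989). Of the 46078 gene identifiers, 45143 were found in GENCODE M21, and 37581 had the same start and end there. Groups came from the sample titles.

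Each comparison was fitted in edgeR 4.0.16 (R 4.3.3) on the groups compared, with TMM scaling, the filterByExpr filter on low counts, the quasi-likelihood test and Benjamini-Hochberg adjustment over all genes tested. An adjusted p under 0.05 was called. SE is the absolute log2 fold change divided by the square root of F. DESeq2 1.42.0, other scalings and filters, a fit of all 38 libraries, covariates and left-out libraries were the alternatives. The code was tested on simulated data. The 10 genes and all lists were chosen with earlier results of these data known. Named genes are the 10, up to 4 called genes per list and comparison with the largest change, the genes most similar to each of the 10, the markers, and Hk2. Some genes that these rules would name are not reported here.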

Additional observations from a re-analysis of the deposited data

Results flagged for a closer look

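Of the 60 sets of library values (10 genes in 6 groups), 4 held a library far from the rest of its group by Dixon's criterion at the 95% level, which chance flags in about 1 in 20 groups. St3gal1 had 55.3 CPM in d7_KO_420, while the rest of KO day 7 ranged from 14.3 to 26.5 CPM. The same library had 187 CPM of C1galt1, against 119 to 147 CPM in the others, and its Hk2, at 268 CPM, went against its KO label. Fut2 had 555 CPM in d7_WT_356, while the rest of WT day 7 ranged from 233 to 366.8 CPM. St3gal2 had 1.48 CPM in d3_WT_353, while the rest of WT day 3 ranged from 0.585 to 0.942 CPM.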

How the results depend on the processing

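No paired analysis was possible because the groups share no animal numbers. In WT no left-out library changed the calls of the 10 genes from day 3 to day 7 (2 higher and 2 lower throughout), and in KO 0 to 1 were higher and 2 to 3 lower. Counts over all genes without 1 library were 2323 to 4051 in WT (3002 with all) and 2470 to 3518 in KO (3008 with all), and those of other listed genes 17 to 26 and 17 to 20.

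The 3 scores as covariates, of which goblet and colon position were chosen after seeing the data, ended every call of the 10 genes from day 3 to day 7 in both genotypes (0 higher, 0 lower). Without a score 3002 of 15541 genes tested were called in WT and 3008 of 15568 in KO. With the colon position score 581 genes were called in WT and 3 in KO (5 and 0 other listed genes), with the goblet score 337 and 137 (4 and 2), and with the leukocyte score 0 and 0 (0 and 0). These log2 fold changes then changed sign, and the cause was not tested. With colon position, C1galt1 had -0.075 in WT and -0.15 in KO, Fut8 0.029 and 0.21, St3gal2 -0.13 and -0.47, St3gal4 0.00997 and 0.048, and in KO St3gal1 had -0.93 and St8sia5 1.15. With goblet, Fut8 had 0.12 and St3gal2 -0.035 in WT, and in KO St3gal1 had -0.74, St3gal5 -0.78, Fpgt 0.11 and Galnt5 0.020. With leukocytes, the WT values were 0.43 for B3gnt7, -0.46 for C1galt1, 0.18 for Casd1, 0.00647 for Fut4, 0.20 for Fut8, -0.20 for St3gal1, -1.47 for St3gal2, 0.42 for St3gal3, 0.86 for St3gal4, 0.35 for St3gal6, -1.74 for St8sia4 and 3.20 for St8sia5. In KO they were -0.58 for C1galt1, 0.026 for Fpgt, -0.85 for St3gal1 and -0.16 for St3gal2.

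Between the genotypes 0 of the genes with a p were called under every alternative run and every left-out library. With the leukocyte score the day 0 values of C1galt1, St3gal3 and St3gal4 became 0.015, 0.00405 and 0.00260, the day 3 values of Fut2 and St3gal6 became -0.033 and 0.065, and the changes of the genotype difference from day 3 to day 7 of C1galt1 and Fut2 became 0.00332 and 0.10. Without the 2 libraries with Xist, an alternative chosen after seeing the data, the day 0 values of C1galt1, Fut8, St3gal3 and St3gal4 were 0.17, 0.049, 0.11 and 0.059. Leaving out 1 library turned these uncalled values, given by their range: C1galt1 on day 0 (-0.084 to 0.092), St3gal3 on day 0 (-0.077 to 0.11) and day 7 (-0.050 to 0.15), St3gal4 on day 0 (-0.18 to 0.072), day 7 (-0.29 to 0.082) and over both days (-0.023 to 0.15), and St6gal1 on day 7 (-0.10 to 0.13). For the change of the genotype difference from day 3 to day 7 these were C1galt1 (-0.19 to 0.021), Fut2 (-0.13 to 0.16) and Fut8 (-0.029 to 0.11). St3gal1 from day 3 to day 7 in KO ranged from -0.016, without d7_KO_420, to 0.40.

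Genes called between the genotypes over all genes were few and unstable. On day 0 they numbered 5, against 175 by DESeq2, 52 with no filter, 0 with the leukocyte score, 0 with the small intestine score, 565 without the 2 libraries with Xist and 0 to 37 without 1 library (other listed genes 0, against 3, 1, 0, 0, 6 and 0 to 1). On day 3 they numbered 1, against 2 by DESeq2, 0 at a mean CPM of at least 1 and 0 to 1 without 1 library. On day 7 they numbered 1, against 89 by DESeq2, 38 in the fit of all 38 libraries, 0 at a mean CPM of at least 1, 2 with no filter and 1 to 2 without 1 library. Over both days they numbered 2, against 566 by DESeq2, 159 in the fit of all libraries, 0 at a mean CPM of at least 1 and 1 to 555 without 1 library, the 555 without d3_WT_346 and 470 without d7_KO_420, which are libraries whose Hk2 went against the label (135 without d7_WT_419, 104 without d3_KO_351). Without those 2 and d3_KO_345, an alternative chosen after seeing the data, 1333 genes were called over both days, and the cause was not tested. In the same alternative Fut2 had 0.083 in the change of the genotype difference from day 3 to day 7, and from day 3 to day 7 in KO Fut8 had 0.00876 and St3gal1 -0.046. Over both days other listed genes numbered 0 to 2 without 1 library, 2 by DESeq2 and 2 in that alternative.

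Against day 0, with no filter, 2 of the 10 genes were at least 1 log2 unit higher on day 7 and 1 lower in both genotypes. Without 1 library 1 to 3 were higher and 1 to 4 lower in WT, and 1 to 2 and 1 to 3 in KO. Shares over all genes in these fits are not given here. Those given above belong to the filtered fit with no library left out. Day 0 KO libraries held 10.5 to 17.5 M counts, which limits what St3gal5 and St3gal2 can show there.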
